A study of Mus musculus with 4 samples.

Results

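The genes described are those that encode the nuclear subunits of the 5 oxidative phosphorylation complexes, in mouse hearts at embryonic day 9.5 from mutants in which Cre driven by Nkx2.5 deletes the histone deacetylase gene Hdac3, and from littermate controls. They were chosen by gene name on the array: names of the Nduf, Sdh, Uqcr, Cox4 to Cox8 and Atp5 series, 1 probe per gene, the one with the highest mean processed signal. The rule took 85 of the 30199 gene names on the array, with 125 probes between them. Of these names, 81 are subunits of a complex and 4 are not: Atp5c1-ps is a pseudogene, Atp5s and Atp5sl (now Dmac2l and Dmac2) and Cox7a2l are factors that act beside the complexes. Genes were kept where the probe was called well above background in all 4 mutant channels or in all 4 control channels, and 84 members were among the 19609 genes tested. Cox8c, a testis isoform, was above background in no channel of any array.

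Each of 4 two-colour Agilent arrays, all on 1 slide, paired RNA from a pool of 3 Nkx2.5Cre; Hdac3f/f mutant hearts with RNA from a pool of 3 Hdac3f/f littermate control hearts, on a mixed CD1/B6/129 background. Cre driven by Nkx2.5 acts in cardiac progenitors and their descendants, and cells of other origin in the dissected heart keep the gene, while the labels state no Cre allele for the controls. The labels call the pools biological replicates, and with 4 arrays the precision of each value is limited. For replicates 2 to 4 a free-text description speaks of embryonic stem cells, against the titles and tissue labels of the same samples. Of 18 cardiomyocyte markers all 18 were well above background, with Myh6 and Actc1 among the brightest genes. Of 13 pluripotency markers 7 passed the filter, where 19609 of all 30199 gene names did. Pou5f1 was above background in no channel, while Nanog, Utf1 and Tdgf1 were above it in every channel.

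In the respiratory chain, complexes I and II pass electrons from NADH and succinate to coenzyme Q, complex III passes them on to cytochrome c, and complex IV, cytochrome c oxidase, hands them to oxygen. Complexes I, III and IV pump protons as they do so, and complex V, the ATP synthase, uses the proton gradient to make ATP. Most subunits are made from nuclear genes, and several subunits of complex IV have one isoform found in most tissues and another found in heart and skeletal muscle, a switch that proceeds as the heart matures.

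Isoform genes of complex IV are shown by their promoters, because its lowest and highest ratio fall in heart and muscle isoforms. Beside them stand 2 widely expressed isoforms, picked because they hold motif letters that these lack. The stretches run from 250 bases before to 50 bases after the gene's start and come from RefSeq, build GRCm38.p6, with motif matches in capitals. Cox7a1 (chr7:30183921-30184220, plus strand) and Cox8b (chr7:140900397-140900696, minus strand) are heart and muscle isoforms. Cox8a (chr19:7217567-7217866, minus strand) and Cox6a1 (chr5:115348909-115349208, minus strand) are widely expressed isoforms.
Cox7a1: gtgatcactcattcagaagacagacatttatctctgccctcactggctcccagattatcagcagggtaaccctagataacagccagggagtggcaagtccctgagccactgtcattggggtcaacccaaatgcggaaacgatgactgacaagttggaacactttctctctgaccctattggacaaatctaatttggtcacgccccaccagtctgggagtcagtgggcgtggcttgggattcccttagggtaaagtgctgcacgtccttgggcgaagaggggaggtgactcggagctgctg
Cox8b: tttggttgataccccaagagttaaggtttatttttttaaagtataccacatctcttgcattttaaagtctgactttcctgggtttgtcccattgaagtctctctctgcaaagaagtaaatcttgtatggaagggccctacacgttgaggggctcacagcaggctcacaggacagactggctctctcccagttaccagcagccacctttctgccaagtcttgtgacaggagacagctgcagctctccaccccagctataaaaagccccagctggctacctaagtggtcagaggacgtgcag
Cox8a: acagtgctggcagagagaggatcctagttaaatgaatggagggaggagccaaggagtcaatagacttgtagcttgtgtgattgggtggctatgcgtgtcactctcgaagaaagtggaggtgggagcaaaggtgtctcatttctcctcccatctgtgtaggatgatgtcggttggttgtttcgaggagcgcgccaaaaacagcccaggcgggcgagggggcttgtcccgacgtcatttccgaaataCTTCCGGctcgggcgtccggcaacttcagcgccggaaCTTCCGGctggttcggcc
Cox6a1: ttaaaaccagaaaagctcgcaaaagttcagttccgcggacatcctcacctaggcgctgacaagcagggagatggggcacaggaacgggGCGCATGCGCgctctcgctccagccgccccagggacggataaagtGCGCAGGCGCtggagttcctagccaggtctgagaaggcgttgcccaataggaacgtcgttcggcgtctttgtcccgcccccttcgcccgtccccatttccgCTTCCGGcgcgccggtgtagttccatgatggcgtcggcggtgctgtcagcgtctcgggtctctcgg
The capitals mark the palindromic core recognised by the nuclear respiratory factor NRF-1, with any base at one central position, and CCGGAAG, an ETS core of the kind bound by GABP, on either strand. Cox6a1 held 2 matches to the NRF-1 core and 1 to the ETS core, and Cox8a held 2 ETS cores. Cox7a1 and Cox8b held neither, nor did the widely expressed Cox7a2. Cox5a, Cox5b, Cox7b and Cox7c of complex IV held neither as well. Promoter entries were found for 70 of the members. The NRF-1 core was present in 17 of those 70 (24.3%), against 5.19% of 27025 mouse genes. The ETS core was present in 16 of 70 (22.9%), against 9.93%. In complex IV the NRF-1 core was present in 1 of 12 (8.33%) and the ETS core in 3 of 12 (25%). The letters TCAAGGTCA, an element of oestrogen-related receptors, were present in 2 of 70 (2.86%), against 0.466% of all genes. The MEF2 letters CTAAAAATA were present in 0 of 70, against 0.588%. These are matches of letters within a short window, and motifs on either strand can overlap each other. The 17 members with an NRF-1 core had a median log2 ratio of 0.0123, and the 53 without it one of 0.0262. The 16 with an ETS core had a median of 0.0116, and the 54 without it 0.0287.

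The authors' table gives each array's log2 ratio under a heading that sets mutant against wild type. On arrays 1 and 2 these columns ran with the scanner's ratio of Cy5 to Cy3, with slopes of 1.03 and 1.01 over bright probes. On arrays 3 and 4 they ran against it, with slopes of -0.99 and -1.01. The labels nevertheless put the mutant RNA in Cy5 on every array. Ratios are given here as the deposited table's columns name them, a direction that is likely but not settled, and values read as labelled are given for the main results and for many of the genes and lists named. Between arrays 1 and 4 the deposited ratios correlated at r = -0.325 over all 19609 genes. For arrays 2 and 4 the value was -0.124, for arrays 1 and 3 0.0538, and for arrays 2 and 3 0.0155. Hdac3, the deleted gene, was below control on all 4 arrays in the deposited direction, with log2 ratios of -0.22, -0.498, -0.522 and -1.15. Its mean was -0.60 ± 0.393 (SD, n = 4), and with the arrays read as labelled it was 0.238. The targeted gene was therefore lower in mutant hearts on each array only in the deposited direction.

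No subunit gene differed between mutant and control hearts past the threshold. With limma and Benjamini-Hochberg adjustment, 0 of 84 members passed an adjusted p of 0.05, against 0% of all genes tested, and the lowest adjusted p was 0.586 among members and 0.253 among all genes. At an unadjusted p under 0.05, Cox7a1 was higher and Cox8b and Ndufs1 were lower in mutant hearts, where 3.88% of all genes were higher and 4.57% lower. In these dissected hearts, fewer cells of a type and less RNA per cell cannot be told apart. The ratios of the members were small, from -0.37 for Ndufa10 to 0.395 for Cox7a1 on the log2 scale. Of the 84 members, 53 (63.1%) had a mean ratio within 0.1 of 0 on the log2 scale, against 54.5% of all genes tested. Their median was 0.0259, and that of all genes was 0.0112. On all 4 arrays 6 members were above control, where 10% of all genes were, and 8 were below, where 9.7% were. Together that made 16.7% of members and 19.7% of all genes with one sign on every array. The 6 above were Cox7a1, Cox7b, Ndufc1, Ndufv2, Atp5j2 and Uqcrq. The 8 below were Cox8b, Cox5a, Ndufs1, Sdha, Uqcrc2, Atp5a1, Atp5f1 (now Atp5pb) and Atp5s. These signs are of the deposited ratios, and with the scanner's processed ratios 4 members were above and 5 below on all 4 arrays. By processed signal the mutant pool was brighter for Cox5a on arrays 3 and 4 and for Sdha on array 1. It was also brighter for Atp5a1 and Atp5f1 on array 4. It was dimmer for Ndufv2 on array 4 and for Atp5j2 and Uqcrq on array 2. For Atp5j2, Uqcrq and Atp5f1 a second, dimmer probe did not keep one sign. The second Uqcrq probe was at 0.016, -0.054, 0.131 and 0.352.

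Most subunit probes were very bright. Of the 84 members, 75 lay above the 90th percentile of genes by mean processed signal. The 9 dimmer ones included Cox8b, Cox4i2, Cox6b2 and Cox7b2, isoforms of restricted tissues, and Atp5s, which is no subunit. No non-control spot on the arrays was saturated.

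**Figure D1:**
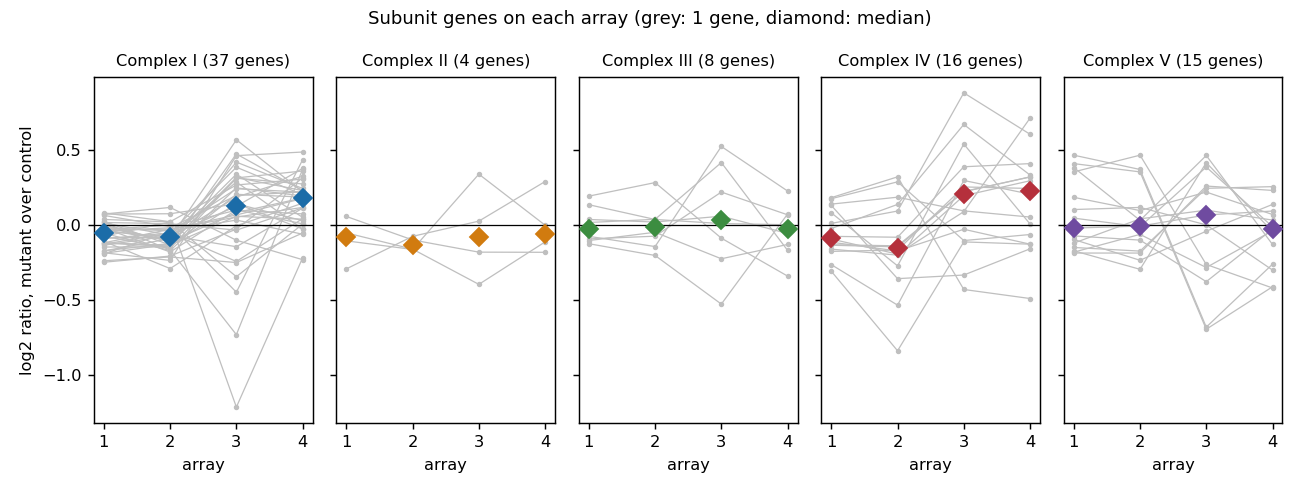
Log2 ratio of mutant over control (vertical axis) of the 80 subunit genes tested, on arrays 1 to 4 (horizontal axis), 1 panel per complex. A grey line joins the values of 1 gene and diamonds are medians. In complexes I and IV the medians lie below 0 on arrays 1 and 2 and above 0 on arrays 3 and 4.

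Complex I takes electrons from NADH and is built from core subunits, which carry the flavin and the iron-sulphur clusters, and accessory subunits around them. Its 37 genes had a median log2 ratio of 0.0338, with 23 above and 14 below control. By array, the median was -0.055 on array 1, -0.082 on array 2, 0.124 on array 3 and 0.179 on array 4. Ndufs1, the largest core subunit and holder of several iron-sulphur clusters, was below control on every array, with ratios of -0.238, -0.213, -0.25 and -0.054. Its processed signal was 17580, 20070, 22280 and 28060 in the mutant pools, against 20350, 22820, 28030 and 29840 in the control pools they shared an array with. The mean was -0.189 ± 0.0911 (SD, n = 4; adjusted p = 0.586, limma). Read as labelled, arrays 3 and 4 turned sign and its mean was -0.0367.

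The lowest mean of any member belonged to Ndufa10, an accessory subunit, and rested on 1 array. Its ratios were -0.076, 0.02, -1.21 and -0.219, so that array 3 alone lay far below the rest. Ndufb6 was at -0.091, -0.054, -0.243 and 0.042, again lowest on array 3. On the other side, Ndufc1 was above control on all 4 arrays, at 0.08, 0.021, 0.265 and 0.304, with a mean of 0.168 ± 0.138 (SD, n = 4). Ndufa5 had ratios of -0.017, -0.105, 0.417 and 0.242, and Ndufb2 had 0.013, -0.068, 0.124 and 0.375. Both were thus near or below 0 on arrays 1 and 2 and above it on arrays 3 and 4. In 18 of the 37 genes both arrays 1 and 2 were below 0 and both arrays 3 and 4 above it, among them the accessory subunits Ndufa1, Ndufa3, Ndufa7, Ndufa13, Ndufb3, Ndufb4, Ndufb7 and Ndufb9. Their values ran from -0.192 to -0.001 on array 1 and from 0.052 to 0.565 on array 3, with Ndufa3 the highest there. In the deposited ratios Ndufb8 alone had the reverse form, at 0.072, 0.116, -0.102 and -0.231. By processed signal Ndufb8 was lower in the mutant pool on array 1, at 43740 against 44960. Ndufa4, named as a complex I subunit and since assigned to complex IV, was one of the 18, with -0.185, -0.236, 0.46 and 0.484. Ndufab1 is the mitochondrial acyl carrier protein, and was within 0.036 of 0 on arrays 1, 2 and 4 but at -0.344 on array 3. A second, dimmer Ndufab1 probe gave 0.367 on array 4 and a mean of 0.0567, opposite in sign to the -0.0707 of the brighter probe.

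Complex II, succinate dehydrogenase, belongs both to the respiratory chain and to the citric acid cycle. Its 4 genes had a median of -0.0577, and complex II was the one complex whose median lay below 0 on every array, at -0.0795, -0.131, -0.078 and -0.0575. Sdha, the flavoprotein that oxidises succinate, was below control on all 4 arrays at -0.053, -0.161, -0.395 and -0.113, with a mean of -0.18 ± 0.15 (SD, n = 4; adjusted p = 0.607, limma). On array 1 the processed signal of Sdha was 12250 in the mutant pool and 12020 in the control pool. Sdhb, the iron-sulphur subunit, was at 0.056, -0.1, -0.181 and -0.182. The membrane anchors Sdhc and Sdhd were at 0.0165 and -0.0137 on average and crossed 0 between arrays. A second Sdhc probe gave -0.0742. Read as labelled, the means of Sdha and Sdhb were 0.0735 and 0.0798.

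Complex III, the cytochrome bc1 complex, had a median of 0.0216 over 8 genes, and its array medians stayed between -0.03 and 0.0335. Uqcrc2, a core protein, was below control on all 4 arrays at -0.104, -0.049, -0.225 and -0.13, with a mean of -0.127 ± 0.0734 (SD, n = 4; adjusted p = 0.631, limma). Uqcrfs1, the Rieske iron-sulphur protein, was at -0.125, -0.203, -0.526 and 0.072. Uqcr11 and Uqcrc1 had the highest means, 0.132 and 0.0745, and each was highest on array 3, at 0.521 and 0.414. Uqcrh, the hinge protein, was at 0.191, 0.281, -0.088 and -0.34, the reverse of the form of 18 genes of complex I. A second Uqcrh probe, placed on chromosome 2 in the array's mm9 design where the brighter one is on chromosome 4, gave nearly the same 4 values, with a mean of -0.0045. Whether the probes measure 1 gene or a gene and a copy was not tested.

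Complex IV held the widest range, and most of that range came from its isoforms. Over 16 genes the median was 0.0659, with array medians of -0.085, -0.157, 0.207 and 0.223. Cox8b, the heart and muscle isoform of subunit 8, was the lowest of the complex. Its processed signal was 359.5, 251.5, 334.6 and 265.6 in the mutant pools, against 439.4, 459.9, 357.5 and 289.5 in the control pools of the same arrays. The mutant pool was the dimmer one on every array, by the most on array 2, while the groups overlapped across arrays. The log2 ratios were -0.308, -0.836, -0.113 and -0.128, with a mean of -0.35 ± 0.338 (SD, n = 4; adjusted p = 0.586, limma). Without array 2 the mean of Cox8b was -0.183. Read as labelled it was -0.226, with 2 arrays below 0 and 2 above. Cox8a, the widely expressed isoform, was at 0.174, 0.286, -0.104 and -0.064, with a mean of 0.073. A second Cox8a probe, nearly as bright, was at -0.119, 0.051, 0.131 and 0.023, with a mean of 0.0215.

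Cox7a1, the heart and muscle isoform of subunit 7a, was the highest of all members. Its probe, placed at chr7:30970337-30970948 on the plus strand of mm9 by the array's design, is shown because the highest value of the set rests on this 1 probe.
Cox7a1 probe: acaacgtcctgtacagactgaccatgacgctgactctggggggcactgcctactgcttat
The processed signal of Cox7a1 was 14220, 15310, 32550 and 23470 in the mutant pools, against 14180, 13980, 18200 and 16510 in the control pools of the same arrays. Mutant and control pools were close on arrays 1 and 2 and apart on arrays 3 and 4. The log2 ratios were 0.01, 0.092, 0.877 and 0.602, with a mean of 0.395 ± 0.414 (SD, n = 4; adjusted p = 0.586, limma). Its widely expressed counterpart Cox7a2 was at -0.076, -0.082, 0.386 and 0.407, with a mean of 0.159. On arrays 3 and 4 both isoforms were thus above control. The mean of Cox7a1 was 0.159 with array weights, 0.051 on arrays 1 and 2 alone and 0.235 without array 3. Read as labelled, the mean was -0.344 for Cox7a1 and -0.238 for Cox7a2.

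The third muscle isoform went neither with Cox8b nor with Cox7a1. Cox6a2, the heart and muscle isoform of subunit 6a, had a processed signal of 18740, 16440, 28440 and 24100 in the mutant pools, against 22220, 23150, 24410 and 21810 in the control pools. It was below control on arrays 1 and 2, at -0.264 and -0.533, and above it on arrays 3 and 4, at 0.295 and 0.204. Its mean of -0.0745 ± 0.392 (SD, n = 4) therefore describes no single array, and read as labelled, with Cy5 over Cy3, it was -0.324 and below 0 on all 4 arrays. Cox6a1, the widely expressed isoform, did the opposite in the deposited ratios, at 0.181, 0.319, -0.429 and -0.489. Its processed signal was 84100, 90100, 102500 and 87170 in the mutant pools, against 88000, 86220, 126800 and 104500 in the control pools. By that signal the mutant pool was the dimmer one on array 1 as well. Across the 3 heart and muscle isoforms, one lay below control on every array, one above on every array and one changed sign.

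Cox4i2, the isoform of subunit 4 found mainly in lung and linked to the response to low oxygen, was at -0.024, 0.136, 0.667 and 0.331, with a mean of 0.278 ± 0.297 (SD, n = 4; adjusted p = 0.592, limma). Cox4i1, the common isoform, was at -0.176, -0.167, 0.252 and 0.242, with a mean of 0.0377. Cox6b1 had its highest value, 0.709, on array 4, and Cox6b2, a testis isoform, its highest, 0.537, on array 3. Cox5b, Cox6c and Cox7c, which have no muscle isoform, had means of 0.0312, 0.0673 and 0.0645, and each was below control on arrays 1 and 2 and above it on arrays 3 and 4. Cox7c, for one, was at -0.135, -0.146, 0.22 and 0.319. Cox7b was above control on all 4 arrays, at 0.138, 0.184, 0.093 and 0.052. Cox5a, a matrix-side subunit, was below on all 4, at -0.115, -0.173, -0.029 and -0.128. Its processed signal on arrays 3 and 4 was higher in the mutant pools, at 72820 and 64090 against 70160 and 61200. Cox7b2 had a mean of -0.18 but was close to background, being well above it on 3 of 4 arrays in the mutant channel and 4 of 4 in the control channel.

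**Figure D2:**
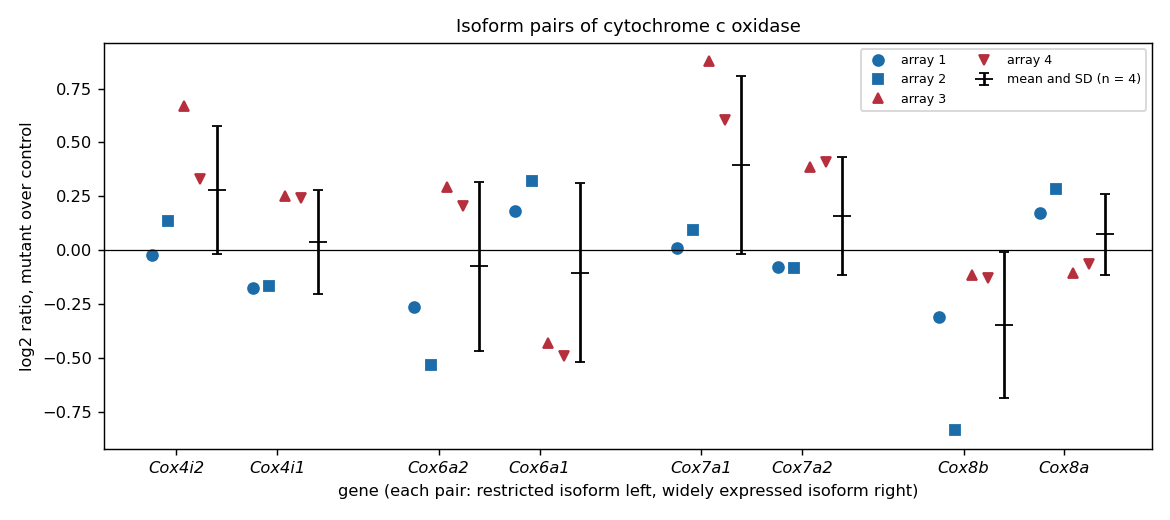
Log2 ratio of mutant over control (vertical axis) of 4 isoform pairs of complex IV on each array (symbols), with the mean and SD over 4 arrays (black). Cox8b is below 0 and Cox7a1 above 0 on every array, and Cox6a2 lies on both sides of 0.

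Complex V, the ATP synthase, had a median of 0.0123 over 15 genes, and of -0.00225 read as labelled. The catalytic head gave mixed signs. Atp5a1, the alpha subunit, was below control on all 4 arrays, at -0.073, -0.101, -0.377 and -0.028, with a mean of -0.145. On array 4 the processed signal of Atp5a1 was higher in the mutant pool, at 60570 against 53160. Atp5b, the catalytic beta subunit, was at 0.407, 0.352, -0.693 and -0.411. Atp5f1, the b subunit of the peripheral stalk, was below control on all 4 arrays, with a mean of -0.141 ± 0.113 (SD, n = 4). On array 4 its processed signal was 35290 in the mutant pool and 34760 in the control pool. A second Atp5f1 probe was at -0.061, 0.049, -0.271 and 0.017. The gamma subunit gene Atp5c1 had a mean of -0.0595, and a second probe gave 0.037. The 3 genes Atp5g1, Atp5g2 and Atp5g3 encode the same c-ring protein, with different import sequences. Atp5g2 was at 0.352, 0.463, -0.263 and -0.419, and Atp5g3 at 0.463, 0.368, -0.679 and -0.261. Atp5g1 had smaller values of the same form, 0.102, 0.116, 0 and -0.3, and its second probe had a mean of 0.0513. By the deposited ratios of their brightest probes, all 3 c-ring genes thus crossed 0 between arrays, in step with Atp5b. The processed signal of Atp5g1 did not show this form. It was 45960, 47640, 64220 and 47870 in the mutant pools, against 46410, 48020, 62680 and 55320 in the control pools. A second Atp5g2 probe, nearly as bright, did not show this form, at 0, 0.085, 0.143 and 0.153, and nor did the dimmer second Atp5g1 probe, at 0.166, -0.077, -0.027 and 0.143. The stalk and membrane subunits Atp5l and Atp5o had the opposite form, Atp5l at -0.187, -0.187, 0.258 and 0.229 and Atp5o at -0.15, -0.174, 0.243 and 0.254. Atp5j2, the f subunit, was above control on all 4 arrays, with a mean of 0.141, by a probe that the array's mm9 design places on chromosome 9. The other Atp5j2 probe is placed on chromosome 5, where RefSeq has the gene, and gave -0.159, -0.271, 0.19 and 0.4, so that its sign was not the same on every array. Atp5k, the e subunit, was at 0.381, 0.03, 0.461 and -0.13, and Atp5d, the delta subunit, at 0.045, -0.012, 0.384 and -0.012.

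Of the matched names that are no subunits, Atp5s was below control on all 4 arrays, with a mean of -0.175. The pseudogene Atp5c1-ps had a mean of -0.246, the assembly factor Atp5sl one of -0.00875 and the supercomplex factor Cox7a2l one of -0.024. A pseudogene resembles its parent in sequence, so that the values of Atp5c1-ps and Atp5c1 are uncertain as separate measurements.

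The main pattern among the subunits was a split between arrays 1 and 2 and arrays 3 and 4. Of the 84 members, 53 (63.1%) were below control on arrays 1 and 2, as were 35.6% of all genes, and 44 (52.4%) were above control on arrays 3 and 4, as were 33.7%. Both held for 32 members, while 7 members were above control on arrays 1 and 2 and below it on arrays 3 and 4. Across the 84 members, measured by the same probes on 1 slide, the ratios of arrays 1 and 2 correlated at r = 0.735, against 0.54 across all genes, and those of arrays 3 and 4 at r = 0.478, against 0.448. Arrays 1 and 4 correlated at r = -0.512 across the members, against -0.325 across all genes. The other pairs across the split were weaker. Arrays 1 and 3 were at -0.234 across the members, against 0.0538 across all genes. Arrays 2 and 3 were at -0.19, against 0.0155, and arrays 2 and 4 at -0.364, against -0.124. These splits fall where the deposited columns change from running with Cy5 over Cy3 to running against it.

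Read as Cy5 over Cy3, 32 of 84 members (38.1%) were lower in Cy5 on all 4 arrays, against 13.7% of all genes tested, and 7 (8.33%) were higher on all 4, against 13.2%. Complex I had 18 of 37 genes lower and 1 higher, complex IV had 7 of 16 lower and 2 higher, and complex V had 3 of 15 in each direction. At an unadjusted p under 0.05 in that reading, 20 members were lower and 5 higher, against 7.52% and 7.57% of all genes. Past an adjusted p of 0.05 there were 141 genes, 0.719% of those tested, and 0 members. From the labels this reading would be mutant over control, and dye and genotype cannot be told apart in it, since no array carries the labelled opposite orientation. With loess-normalized scanner intensities, 32 members were lower and 8 higher on all 4 arrays, and with the scanner's processed ratios they were 37 lower and 4 higher. With a dye term in the fit of the deposited ratios, 0 members and 0 genes passed, although 1415 genes were higher and 1573 lower at an unadjusted p under 0.05. The adjusted p in that fit was 0.274 for Cox8b, 0.295 for Ndufs1 and 0.228 for Cox7a1. On arrays 1 and 2 alone, where labels and table give the same direction, 0 members and 31 genes (0.158%) passed an adjusted p of 0.05.

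The sign of the Cy5 to Cy3 ratio went with probe brightness, among the members and among all genes. The 4 members in the top percentile by brightness were Atp5b, Atp5g3, Cox6a1 and Cox8a. By the deposited ratios of their brightest probes, all 4 were higher in Cy5 on all 4 arrays. So were 73.8% of the 302 genes in that band, whose median was 0.286. The second Cox8a probe, nearly as bright, was not, and its mean of Cy5 over Cy3 was -0.0555. With the scanner's processed ratios, 0 of the 16 complex IV genes were higher in Cy5 on all 4 arrays, Cox6a1 and Cox8a included. Between the 97th and the 98th percentile, 12 of 20 members were lower in Cy5 on all 4 arrays, with a median of -0.183, against 16.2% of genes and a median of 0.00788 in the same band. Between the 95th and the 97th percentile, 14 of 29 members were lower on all 4 arrays, with a median of -0.106, against 31.5% and -0.0765. In both of these bands the members' median was below that of all genes, and the part of dye in this was not tested.

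**Figure D3:**
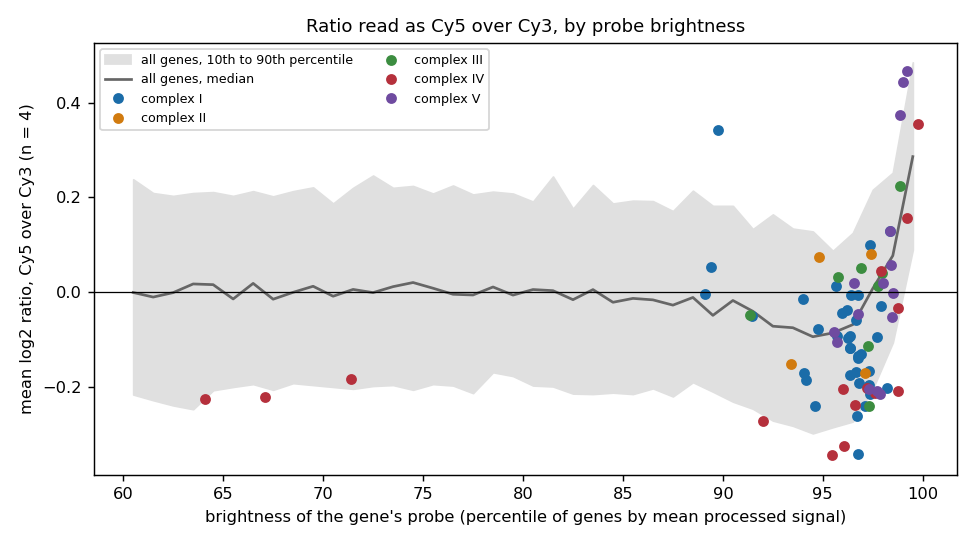
Mean log2 ratio of Cy5 over Cy3 over 4 arrays (vertical axis) against the brightness percentile of the gene's probe (horizontal axis, from 60), for members by complex (points) and for all genes (line, median; band, 10th to 90th percentile). Most members lie below 0 between the 95th and 98th percentiles, and the brightest lie above 0.

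Other bright gene lists showed splits of their own, added here after the values were seen. Of 78 cytosolic ribosomal protein genes, 50 (64.1%) were higher in Cy5 on all 4 arrays, and of 73 mitochondrial ribosomal protein genes 29 (39.7%) were lower. Across all genes tested these shares were 13.2% and 13.7%, and in the top percentile by brightness 73.8% of genes were higher in Cy5. Cardiomyocyte markers had array medians of 0.0712, 0.161, -0.144 and -0.296 in the deposited direction, opposite in form to complexes I and IV. Of those 18 markers, 8 (44.4%) were higher in Cy5 on all 4 arrays and 0 lower. Pln had the lowest mean of the markers, at -0.788. Erythroid markers had a median of -0.281 in the deposited direction, with 16 of 18 below control, endothelial markers one of 0.169, with 9 of 13 above, endoderm and liver markers one of 0.228, with 11 of 11 above, and skeletal muscle markers one of 0.481, with 6 of 7 above. Of all genes tested, 53.5% were above control and 46.5% below. Only 11 of 18 endoderm and liver markers and 7 of 14 skeletal muscle markers passed the filter. Foxa1, Foxa3, Alb, Myf5, Myod1 and Myog were among those that did not. Foxa2 passed through the mutant channel, being well above background in 4 mutant and 3 control channels. Read as labelled, the medians were -0.0418 for erythroid, -0.0725 for endothelial, 0.0517 for endoderm and liver and -0.117 for skeletal muscle markers. The part of these cell types in the values of the subunits was not tested.

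Genes that work with the complexes were taken as lists beside the members. The citric acid cycle and pyruvate dehydrogenase supply NADH, and of their 19 genes 17 were below control and 2 above, with a median of -0.112, where 46.5% of all genes were below control. Array medians were -0.144, -0.134, -0.228 and -0.077, below 0 on all 4 arrays. Pdha1, the E1 alpha subunit of pyruvate dehydrogenase, was at -0.166, -0.194, -0.649 and -0.182. Dld, the E3 subunit, was at -0.277, -0.233, -0.725 and -0.086, and Dlat, the E2 subunit, at -0.059, -0.214, -0.157 and -0.307. All 3 were below control on every array, and 6 of the 19 genes were, against 9.7% of all genes. Read as labelled, the list's median was 0.0478, so its direction depends on the arrays' orientation.

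Electron carriers and coenzyme Q synthesis had 12 of 17 genes below control, with a median of -0.1, and 7 of them were below on all 4 arrays, against 46.5% and 9.7% of all genes. Read as labelled, the median of this list was 0.021. Etfa, which passes electrons from fatty acid oxidation, was at -0.149, -0.219, -0.166 and -0.141. Cyc1, the cytochrome c1 of complex III, which the gene name rule did not take, had a mean of -0.21, and Coq2 of coenzyme Q synthesis one of -0.172. Assembly factors had a median of -0.0105 over 46 genes, with 20 above and 26 below. Among them Timmdc1, of complex I assembly, had a mean of 0.186, Sco1, a copper chaperone of complex IV, one of -0.17, and Cox16 one of -0.163. Transport of adenine nucleotides and protons had a median of -0.00512 over 16 genes. In it Nnt, the proton-coupled transhydrogenase, was at -0.356, -0.415, -0.26 and -0.135, Ucp3 had a mean of -0.479 and Slc25a31 one of -0.391, and all 3 were below control on every array. Regulators of mitochondrial biogenesis had a median of 0.0406 over 28 genes, with 15 above and 13 below control. The genes with the smallest p-values in it were all below. Tfam, which packages and transcribes mitochondrial DNA, was at -0.239, -0.151, -0.546 and -0.073. Esrrb had a mean of -0.272 and Mterfd1 (now Mterf3), a factor of mitochondrial transcription and ribosomes, one of -0.226. In the deposited direction 0 genes of these lists passed an adjusted p of 0.05, and with the arrays read as labelled 1 gene of the transport list did.

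**Figure D4:**
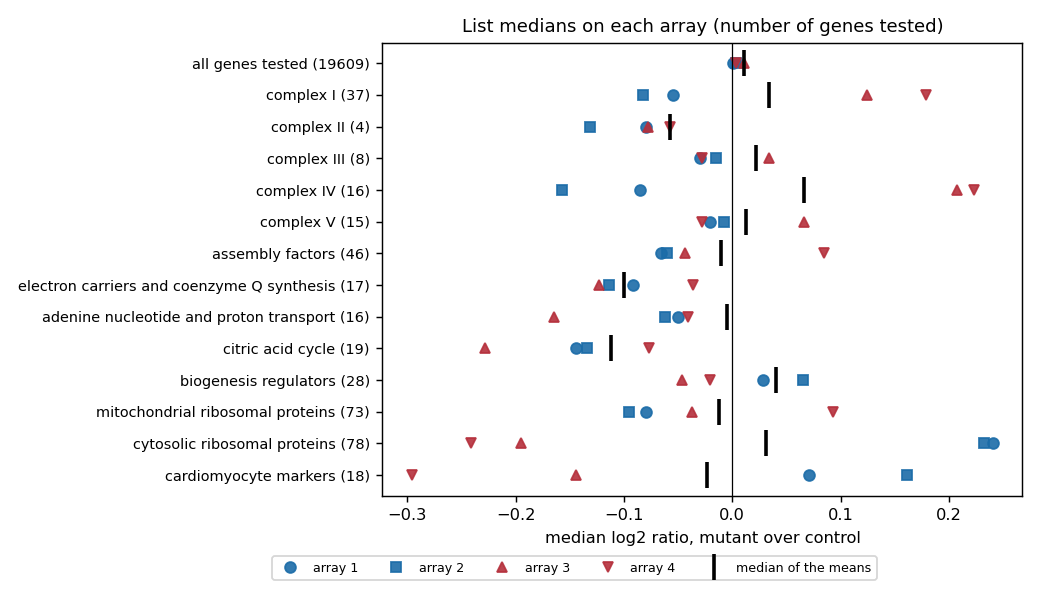
Median log2 ratio of mutant over control (horizontal axis) of each complex and list (rows, with the number of genes tested) on each array (symbols) and over the genes' means (bar). Complex II, the citric acid cycle, electron carriers and coenzyme Q synthesis, and adenine nucleotide and proton transport lie below 0 on all 4 arrays. Complexes I and IV lie on both sides of 0.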

How the data were processed

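RNA of mutant and control embryonic hearts was measured on 4 two-colour arrays, and the deposited data are scanner files and 1 normalized table. Each scanner file gives, per the file headers, spot and background intensity for both dyes, processed intensity signals, and the log10 ratio of Cy5 over Cy3, as written by Agilent Feature Extraction 11.5.1.1. The submitters' processing notes name version 8.5.1.1. The deposited table holds log2 ratios, by a normalization that the sources used here do not state. The direction was found by regression on the scanner ratios of bright probes.

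The deposited log2 ratios were tested against 0 with limma 3.58.1 in R 4.3.3 (lmFit and eBayes, Benjamini-Hochberg over 19609 genes, threshold 0.05). The brightest probe was kept per gene name. Each array pairs 1 mutant pool with 1 control pool. Lists were described by counts and medians and not tested. The members and lists were chosen with earlier results of these data known. Genes were named by a rule: the markers, isoform families and complex II, the smallest p-values on each side of 0 per complex, genes whose probes differ in sign, matched names that are no subunits, Hdac3, and the smallest p-values of each other list. Genes of one sign on every array, genes that show the split between arrays, the brightest members, Ndufa4, Atp5b and Pln were named after their values were seen. One gene that the rule names is not reported here. Alternatives were other ratio sources, array directions, filters, probe rules, weights, a dye term and leaving out each array. The fit was tested on simulated data. Saturation and background flags were taken from the scanner files.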

Additional observations from a re-analysis of the deposited data

Results flagged for a closer look

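In 3 of the 58 named genes, 1 array lay far from the other 3, by a gap that took up more of the range than Dixon's 95% critical value allows. Of all genes tested, 6.54% had such a gap, where chance alone gives about 5%. Ndufab1 had a gap of 0.918 of its range, with array 3 at -0.344 and the others between 0.005 and 0.036. Atp5d had a gap of 0.856 of its range, with array 3 at 0.384 and the others between -0.012 and 0.045. Pdha1 had a gap of 0.942 of its range, with array 3 at -0.649 and the others between -0.194 and -0.166. The array that stood apart was array 3 in all 3 genes. On that array the deposited ratios of all probes had the widest spread, an SD of 0.367, against 0.215 to 0.242 on arrays 1, 2 and 4.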

How the results depend on the processing

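Under every alternative run, 0 members passed an adjusted p of 0.05, and for all genes that count was 0 except for 141 with the arrays read as labelled, 31 on arrays 1 and 2 alone, 1 with array weights and 2 without array 1. The counts at an unadjusted p under 0.05 were 761 higher and 896 lower, against 1484 and 1475 as labelled, 2726 and 2509 on arrays 1 and 2 alone, 1624 and 1586 with array weights, 1415 and 1573 with a dye term, and 338 and 317 in the separate-channel fit without the array as a block or pairing of the pools. Members below control on every array used numbered 8, against 32 as labelled, 53 on arrays 1 and 2 alone, where 19 were above, and 5 with the scanner's processed ratios. Leaving out 1 array gave 0 to 2 genes past the adjusted threshold, 8 to 10 members above and 9 to 16 members below on the arrays left, of which fewer have to share a sign, with the most below without array 3 or 4. The median of all members was -0.0884 as labelled, -0.0815 on arrays 1 and 2 and -0.0423 with weights. The median of complex I was -0.0973 as labelled, -0.074 on arrays 1 and 2, -0.0421 with weights, -0.00633 without array 3 and -0.000667 without array 4. The median of complex IV was -0.207 as labelled, -0.125 on arrays 1 and 2, -0.0482 with weights and -0.0183 without array 4. The median of complex II was -0.121 on arrays 1 and 2, -0.105 with weights, -0.0988 over all probes of a gene, and -0.0947 to -0.0477 with 1 array left out. The median of complex III was -0.025 on arrays 1 and 2, and -0.0172 to 0.0487 with 1 array left out.

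No named gene passed the threshold, so the signs below are of means that did not pass it either. As labelled, 42 of 58 named genes changed sign, with these means: Cox4i1 -0.209, Cox4i2 -0.222, Cox6a1 0.354, Cox6b1 -0.271, Cox6b2 -0.184, Cox7a1 -0.344, Cox7a2 -0.238, Atp5g1 0.13, Atp5g3 0.443, Sdha 0.0735, Sdhb 0.0798, Sdhc -0.151, Ndufc1 -0.117, Ndufa5 -0.195, Ndufb2 -0.139, Ndufa10 0.342, Ndufb6 0.014, Uqcr11 -0.241, Uqcrc1 -0.048, Uqcrfs1 0.0315, Uqcrc2 0.0505, Cox7b2 0.066, Atp5j2 -0.00225, Atp5d -0.0848, Atp5f1 0.0195, Atp5a1 0.0578, Ndufab1 0.0988, Atp5c1-ps 0.117, Atp5s 0.041, Atp5sl 0.00975, Hdac3 0.238, Timmdc1 -0.0447, Sco1 0.0462, Cox16 0.00775, Cyc1 0.021, Coq2 0.0437, Mterfd1 0.0475, Esrrb 0.199, Tfam 0.0573, Dld 0.0752, Pdha1 0.118 and Dlat 0.0478. On arrays 1 and 2 alone the 13 that changed were Cox4i1 -0.172, Cox6a1 0.25, Cox6b1 -0.144, Cox6b2 -0.096, Cox7a2 -0.079, Atp5g1 0.109, Atp5g3 0.415, Sdhc -0.135, Ndufa5 -0.061, Ndufb2 -0.0275, Uqcr11 -0.11, Ndufab1 0.028 and Atp5sl 0.001. With array weights, which were 2.49, 2.02, 0.337 and 0.591, the 10 that changed were Cox4i1 -0.101, Cox6a1 0.122, Cox6b1 -0.0326, Cox6b2 -0.0306, Atp5g1 0.0572, Atp5g3 0.278, Sdhc -0.0884, Uqcr11 -0.0315, Ndufab1 0.00313 and Atp5sl 0.00264. With the mean of all probes of a gene they were Atp5g1 0.0154 and Sdhc -0.0289. Uqcrh was -0.000321 with loess-normalized intensities and in the fit without the pairing, and Atp5g2 -0.00817 with processed ratios. With 1 array left out, means that crossed 0 ranged as follows: Cox6a2 -0.198 to 0.0783, Cox4i1 -0.0337 to 0.109, Cox6a1 -0.246 to 0.0237, Cox6b1 -0.0667 to 0.234, Cox6b2 -0.062 to 0.208, Atp5g1 -0.066 to 0.0727, Atp5g2 -0.11 to 0.184, Atp5g3 -0.191 to 0.19, Sdhc -0.0903 to 0.0763, Sdhd -0.114 to 0.079, Uqcrc1 -0.0387 to 0.156, Ndufab1 -0.106 to 0.0203, Uqcrh -0.079 to 0.128, Atp5sl -0.0287 to 0.00467, Cox7a2l -0.167 to 0.074. Centring changed no sign of a named gene. The dye term, the filters on dim probes and the trend with robust variance could change none, since each leaves a gene's mean ratio as it is. The cause of these changes was not tested.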
